A study of Mus musculus with 6 samples.

Results

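Interstitial matrix genes and markers of the cells that make this matrix (fibroblasts, stellate cells and pericytes) were examined in cultured mouse islet cells. The list holds 42 genes. A probe matched 41 of them through its RefSeq accession, all 41 were tested among 25790 genes in all, and Col12a1 matched no probe by this rule. For a gene with several probes, the one with the highest mean signal over the 6 arrays was used. RNA was measured in islets from male C57Bl/6N mice that had been dispersed into single cells and kept in culture for 72 h. In the exoNOD group (3 arrays) the medium held exosomes, vesicles that cells shed, at 50 µg/ml. Their source was T lymphocytes with the surface markers CD4+CD25-, taken from NOD mice, which develop autoimmune diabetes. The control cells received no exosomes (3 arrays). Each of the 3 experiments had its own islet and exosome preparations. The islet cells were a mixture and no cell type was sorted, so more cells of a type and more RNA per cell cannot be told apart.

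Interstitial matrix is built from fibrils of collagens I, III and V that lie on scaffolds of fibronectin and fibrillin. Small leucine-rich proteoglycans coat the fibrils, lysyl oxidases cross-link them, and matricellular proteins such as periostin and tenascin C are added where tissue is remodelled. In the pancreas these proteins come mainly from fibroblasts and stellate cells, which turn into contractile, matrix-secreting myofibroblasts when activated, and pericytes of the islet capillaries share many of their genes.

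A level is given as the log2 of the signal over the array's 75th percentile, changes are exoNOD minus control on that scale, and a value after ± is the SE of a change (n = 3 arrays per group). Levels of different genes are not compared, since each probe has its own brightness. A gene passed at a Benjamini-Hochberg adjusted p below 0.05 in limma over all 25790 genes. The precision is limited by the number of arrays. The test was also fitted with the replicate number as a block (the replicate block), which compares arrays of equal number. The labels do not state that equal numbers share a preparation, but across all genes, the deviations from the group means had correlations of 0.361, 0.278 and 0.471 for equal-numbered arrays.

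Between 78.1% and 81.8% of the spots of an array were well above background and 0 were saturated. The insulin gene Ins2 had 8.61, 8.63 and 8.65 in exoNOD and 8.73, 8.65 and 8.72 in control cells, and all 10 beta cell markers were well above background on all 6 arrays. Of the 41 matrix and mesenchymal genes, 40 were well above background on all 6 arrays. The defining markers of mesenchymal cells on the list, among them Col1a1, Col3a1, Dcn, Pdgfra, Pdgfrb, Rgs5 and Tcf21, were thus all detected in both groups. The scan times place the 3 control arrays and exoNOD replicate 1 in 1 scan and exoNOD replicates 2 and 3 in another.

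The first pair of sequences belongs to genes that rose with the replicate block and the third to the gene that fell with it. They are the 250 bases before a transcription start of the gene (RefSeq, GRCm38.p6, plus strand for all 3 genes), shown because the measured changes had opposite signs. Aspn was kept for testing through the control arrays alone, since only 2 exoNOD arrays were well above background, which favoured a fall. Capitals mark motifs found on either strand, which do not overlap each other here. The Pdgfra window is chr5:75152001-75152250, the Vim window chr2:13574061-13574310 and the Aspn window chr13:49544193-49544442. The Pdgfra window lies inside the gene, whose first base is 75151322, and so precedes a later start. The Vim and Aspn windows end just before the first base of the gene.
Pdgfra: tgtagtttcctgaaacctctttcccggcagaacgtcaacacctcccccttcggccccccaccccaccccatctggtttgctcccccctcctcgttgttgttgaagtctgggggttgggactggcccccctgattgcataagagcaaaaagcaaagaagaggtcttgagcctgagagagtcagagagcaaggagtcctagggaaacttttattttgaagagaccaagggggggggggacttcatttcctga
Vim: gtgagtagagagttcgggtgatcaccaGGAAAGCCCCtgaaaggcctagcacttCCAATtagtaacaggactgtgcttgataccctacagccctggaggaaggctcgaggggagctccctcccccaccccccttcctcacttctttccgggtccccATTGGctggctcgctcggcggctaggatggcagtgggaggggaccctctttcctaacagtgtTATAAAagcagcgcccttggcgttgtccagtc
Aspn: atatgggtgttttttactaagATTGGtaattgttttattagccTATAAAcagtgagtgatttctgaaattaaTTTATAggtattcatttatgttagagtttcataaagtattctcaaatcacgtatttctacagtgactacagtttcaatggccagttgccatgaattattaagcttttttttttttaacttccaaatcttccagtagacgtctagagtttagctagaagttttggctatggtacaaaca
The motifs searched were the AP-1 element (TGACTCA), the SMAD element CAGACA, the box CCAAT, the TATA box TATAAA, the GC box GGGCGG, the CArG box and the NF-kB element. Vim held CCAAT at 2 places, TATAAA at bases -32 to -27 from the start, and an NF-kB element at -223 to -214. Aspn held CCAAT at 1 place and TATAAA at bases -207 to -202 and -178 to -173, and 0 of these motifs were found in the Pdgfra window. An NF-kB element was found in 3 of the 26 genes with a window (Des, Vim and Thbs2) and in 3.9% of all 32851 windows, and TATAAA in 6 of 26 and in 12.4%. The CArG box, which binds serum response factor, was in 0 of 26 and in 1.47% of all windows, the AP-1 element in 1 of 26 (Col6a1) and in 4.46%. The SMAD element was in 9 of 26 and in 17.1%, CCAAT in 5 of 26 and in 33.8%, and the GC box in 10 of 26 and in 32.7%. Among the 26, genes with several starts were counted at 1 start, while all windows can include several starts of a gene. The shares are thus of unlike units, and a match of letters is not evidence of binding.

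Comparing exoNOD with control cells addresses how islet cells respond to the exosomes, here in their matrix and mesenchymal genes. Without the block 1 of the 41 genes passed, the cadherin gene Cdh11, against 0.105% of all tested genes, and 0 of the 41 passed with a fall (0.00388% of all genes). With the replicate block 11 passed, against 8.4% of all genes, of which 10 rose and 1 fell, and 30 did not pass. Of all tested genes 6.67% rose (1720) and 1.73% fell (446) with the block. After scaling by the array median instead, 2101 of all genes rose and 2069 fell with the block, and 8 members rose and 3 fell (Aspn, Dcn and Rgs5). The genes that rose were Cdh11, Pdgfra, Vim, Fbln1, Fbn1, Postn, Col8a1, Col6a1, Thy1 and S100a4, and the gene that fell was Aspn. Aspn met the filter on dim probes through the control arrays alone (2 exoNOD arrays were well above background), so the filter favoured a fall. Without replicate 2, only Cdh11, Vim and Aspn passed with the block. Of the 11, Cdh11, Pdgfra, Vim and Aspn also passed with the block after quantile normalization, after median scaling and in the authors' values. In the authors' values the member median was 0.196, as after quantile normalization, so these values were hardly a separate check. Fbln1, Col8a1, Col6a1, Thy1 and S100a4 did not pass after quantile normalization, and Postn, Fbn1, Col6a1 and Thy1 not after median scaling. The median change of the 41 genes was 0.21, with a range between −1.21 and 1.22, and that of all tested genes 0.035. The mean was higher in exoNOD cells for 29 of the 41 genes (55.4% of all genes). The change was at least 1 for Pdgfra and Cdh11 (1.64% of all genes) and −1 or less for Aspn (0.105%). All 3 exoNOD arrays lay above all 3 controls for 7 of the 41 genes (14.6% of all genes) and below them for 0 (7.79%). The members were chosen with results of these data known, so these counts describe the list.

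**Figure D1:**
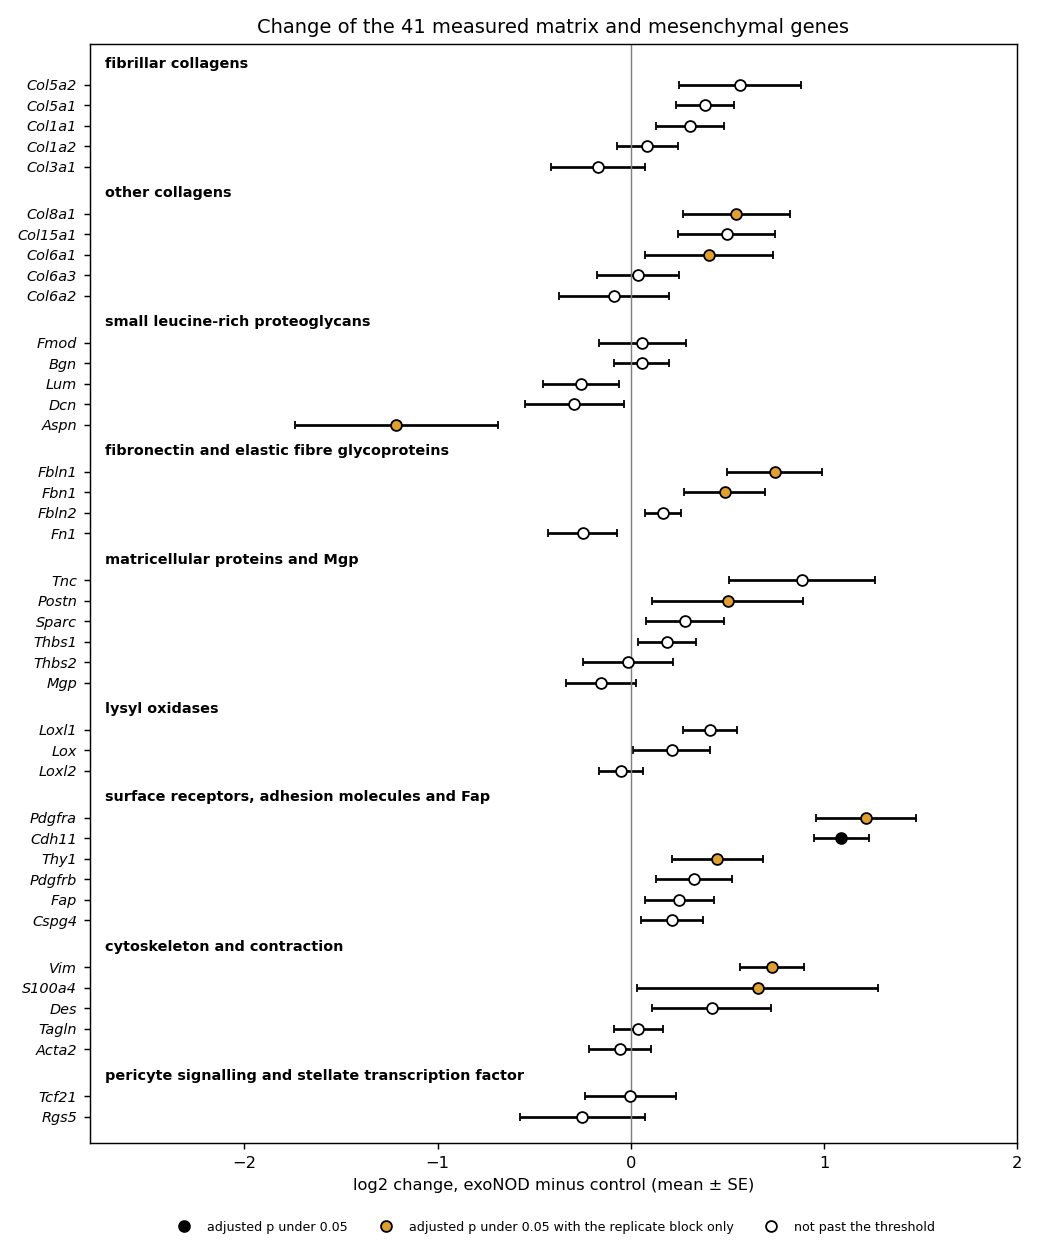
Log2 change (x axis, exoNOD minus control, points with SE) of the 41 measured genes by role, n = 3 arrays per group. Cdh11 is the black point, 10 more (orange) genes passed only with the replicate block, and Aspn at −1.21 stands apart on the left.

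All 6 genes of the receptors, adhesion molecules and Fap had a higher mean in exoNOD cells, and 3 of them rose with the replicate block. Cdh11 encodes cadherin-11, which joins fibroblasts to each other. Its level was −0.95, −0.78 and −0.95 in exoNOD cells, against −2.03, −2.18 and −1.74 in control cells. The groups lay apart, and the exoNOD arrays were closer together than the controls. The signal rose 2.13-fold (log2 change 1.09 ± 0.14, limma adjusted p = 0.047, and 0.00199 with the replicate block). The exoNOD array scanned with the controls lay 1.04 above their mean. Its call was lost when control replicate 1 (adjusted p = 0.219) or control replicate 2 (0.171) was left out, likewise without exoNOD replicate 2 (0.151) and exoNOD replicate 3 (0.12). Quantile normalization gave 0.0512. A second, dimmer Cdh11 probe was well above background on all arrays and averaged −4.28 in exoNOD and −4.36 in control cells, a change of 0.08. With the median of both probes the change of Cdh11 was 0.59 (0.159).

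Pdgfra encodes the PDGF receptor alpha, the usual surface marker of fibroblasts. It had −3.65, −3.21 and −3.58 in exoNOD cells, against −4.91, −5.05 and −4.14 in control cells. Every exoNOD array lay above every control, and control replicate 3 was the nearest. The log2 change was 1.22 ± 0.26, or 2.33-fold, with an adjusted p of 0.102, and Pdgfra rose with the replicate block (0.0141). The exoNOD array scanned with the controls lay 1.05 above their mean. Without control replicate 3 Pdgfra passed without the block as well (adjusted p = 0.038), and without replicate 2 it lost its call with the block (0.125).

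The pericyte and stellate cell receptor gene Pdgfrb did not pass. Its level was 1.21, 1.37 and 1.70 in exoNOD and 1.07, 0.74 and 1.49 in control cells, so the groups overlapped. The change was 0.33 ± 0.20 (adjusted p = 0.424, and 0.0809 with the block). Whether the changes of the 2 PDGF receptors differ was not tested. Thy1, a surface glycoprotein of fibroblasts that mouse T lymphocytes and neurons also carry, had 1.12, 1.40 and 1.69 in exoNOD and 0.71, 0.65 and 1.50 in control cells. Control replicate 3 lay inside the exoNOD range. Thy1 rose with the block (log2 change 0.45, adjusted p = 0.0336) and did not pass without it (0.365). The pericyte proteoglycan gene Cspg4 changed by 0.21 and the fibroblast protease gene Fap by 0.25, and neither passed in either fit.

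**Figure D2:**
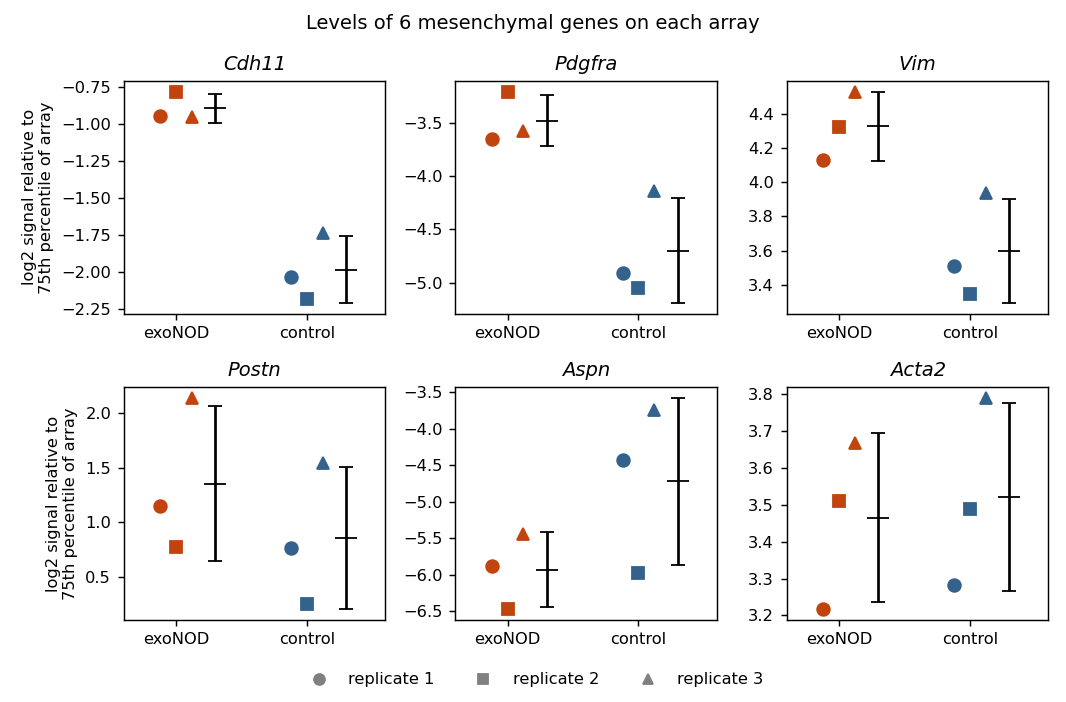
Log2 signal relative to the 75th percentile of the array (y axis) for 6 genes on each exoNOD (left) and control (right) array, with marker shape by replicate number and bars for mean and SD. The groups are apart for Cdh11, Pdgfra and Vim, and overlap for Postn, Aspn and Acta2.

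Among the genes of the cytoskeleton, Vim and the contractile genes gave different values. Vim encodes vimentin, the intermediate filament of mesenchymal cells and of many other non-epithelial cells. It had 4.13, 4.32 and 4.53 in exoNOD cells, against 3.51, 3.35 and 3.94 in control cells. The groups lay apart. The change was 0.73 ± 0.17, or 1.66-fold (adjusted p = 0.122), and Vim rose with the replicate block (0.003). The exoNOD array scanned with the controls lay 0.53 above their mean, and without exoNOD replicate 1 Vim passed without the block (0.0499).

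Acta2 encodes smooth muscle actin, the mark of activated stellate cells and myofibroblasts. It had 3.22, 3.51 and 3.67 in exoNOD and 3.28, 3.49 and 3.79 in control cells. The arrays of both groups covered nearly the same range. The change was −0.06, with a 95% interval from −0.42 to 0.30 (adjusted p = 0.877). For Tagln, the actin-binding protein transgelin, the change was 0.04, with an interval from −0.25 to 0.33 (0.892). With array weights the change of Acta2 was 0.02, and after scaling by the median that of Tagln was −0.10.

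Des, the muscle and stellate cell intermediate filament desmin, changed by 0.42 ± 0.31 and did not pass in either fit. S100a4, a calcium-binding protein of fibroblasts that macrophages and T lymphocytes also express, had 0.36, 0.00 and 1.56 in exoNOD and −0.50, −1.04 and 1.49 in control cells. Replicate 3 was far above the other arrays in both groups. S100a4 rose with the replicate block (log2 change 0.66, adjusted p = 0.0356) and did not pass without it (0.608). The pair differences were 0.86, 1.05 and 0.07. Neither Rgs5, a G protein regulator of pericytes, nor Tcf21, a transcription factor of mesenchymal precursors, passed. Rgs5 had −3.07, −3.24 and −2.43 in exoNOD and −2.77, −3.23 and −1.99 in control cells, a change of −0.25, and Tcf21 changed by −0.00 with a 95% interval from −0.54 to 0.53.

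Of the 5 fibrillar collagen genes, 0 passed in either fit, and 4 had positive changes. Col5a2, a chain of the collagen V that starts fibrils, had the greatest change, 0.57 ± 0.32 (adjusted p = 0.394, and 0.0615 with the block). Its level was −3.66, −3.74 and −2.91 in exoNOD and −4.01, −4.56 and −3.44 in control cells, and the groups overlapped. Col5a1, its partner chain, had 0.85, 0.98 and 1.35 in exoNOD cells, all above the 0.77, 0.49 and 0.76 of control cells (change 0.38, 0.266, and 0.0527 with the block). The chains of collagen I changed by 0.30 ± 0.18 (Col1a1) and 0.09 ± 0.16 (Col1a2), and Col3a1, the chain of collagen III, by −0.17 ± 0.24. Col1a1 had 5.25, 5.33 and 5.77 in exoNOD and 5.22, 4.83 and 5.39 in control cells, so that only exoNOD replicate 3 lay above the highest control. At an unadjusted p below 0.05, 1 of the 5 genes (Col5a1) passed in limma without the block, against 16.6% of all tested genes.

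Among the other collagens, 2 chains rose with the replicate block. Col8a1, a network collagen of vessel walls, had −1.79, −1.31 and −0.94 in exoNOD and −2.23, −2.12 and −1.34 in control cells (change 0.55, adjusted p = 0.35, and 0.024 with the block). Col6a1 belongs to the beaded filaments around cells and had −0.78, −1.24 and −0.28 in exoNOD and −1.02, −1.87 and −0.62 in control cells (0.41, 0.547, and 0.0483 with the block). For both genes the groups overlapped while every pair of equal number moved upward. The other collagen VI chains changed by −0.09 (Col6a2) and 0.04 (Col6a3) and did not pass. Col15a1, of the zone beneath endothelium, changed by 0.50 without passing (0.349, and 0.264 with the block). Its 3 exoNOD arrays lay above the controls by a narrow margin (−5.72 in exoNOD replicate 3 against −5.73 in control replicate 3). The other Col15a1 probes were not well above background on all arrays of either group.

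Of the 4 glycoproteins of fibronectin and elastic fibres, 2 rose with the block and 3 had a higher mean in exoNOD cells. Fbln1 encodes fibulin-1, and its level was −4.26, −3.54 and −3.49 in exoNOD and −4.65, −4.66 and −4.21 in control cells. The exoNOD replicates 2 and 3 lay above all controls, and replicate 1 just below the highest. Fbln1 rose with the block (0.74, adjusted p = 0.0423; 0.234 without it), but a second Fbln1 probe changed by −0.27. Fbn1, the microfibril protein fibrillin-1, had −0.98, −0.70 and −0.33 in exoNOD and −1.30, −1.39 and −0.78 in control cells and rose with the block (0.49, 0.0234; 0.295 without it). The call of Fbn1 with the block was lost without replicate 2 (0.135) and after median scaling (0.0514). Fbln2 changed by 0.17 and Fn1, the fibronectin gene, by −0.25, and neither passed in either fit. Fn1 was 2.26, 2.14 and 2.53 in exoNOD and 2.65, 2.17 and 2.84 in control cells, lower in each pair.

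Among the 6 genes of matricellular proteins and Mgp, Postn rose with the block and the others did not pass. Periostin, its product, binds collagen and is made by activated fibroblasts. Postn had 1.15, 0.77 and 2.14 in exoNOD and 0.76, 0.25 and 1.54 in control cells. Replicate 3 was the highest and replicate 2 the lowest in both groups, and the pairs differed by 0.38, 0.52 and 0.60. Postn rose with the replicate block (log2 change 0.50, adjusted p = 0.0068) and did not pass without it (0.527). The call with the block was lost without replicate 2 (0.0723) and after median scaling (0.0604).

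Tnc, the tenascin C gene, had the greatest change of this group. It had −4.77, −4.26 and −4.04 in exoNOD and −5.59, −5.79 and −4.35 in control cells, with control replicate 3 inside the exoNOD range. The change was 0.89 ± 0.38 (adjusted p = 0.292, and 0.0558 with the block), and a second Tnc probe, well above background on 1 control array, gave 0.83. The collagen-binding protein gene Sparc changed by 0.28, the thrombospondin genes Thbs1 and Thbs2 by 0.19 and −0.02, and Mgp, an inhibitor of calcification, by −0.15. None of these 4 passed in either fit.

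Of the 3 lysyl oxidases 0 passed in either fit, and at an unadjusted p below 0.05 in limma without the block 1 did, Loxl1 (16.6% of all genes). Loxl1, which cross-links elastin, was −1.49, −1.21 and −1.44 in exoNOD cells, all above the −1.94, −1.84 and −1.59 of control cells (change 0.41, adjusted p = 0.242, and 0.0658 with the block). Lox changed by 0.21 and Loxl2 by −0.05, while a second Lox probe gave −0.09 and another Loxl2 probe 0.11.

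Of the 5 small leucine-rich proteoglycans 3 had negative changes, and 1 of them, Aspn, fell with the block. Aspn encodes asporin, which binds collagen and TGF-beta. Its level was −5.88, −6.47 and −5.44 in exoNOD and −4.43, −5.98 and −3.74 in control cells, and 1 exoNOD array was not well above background. The groups overlapped through control replicate 2, which lay below exoNOD replicates 1 and 3. Aspn fell by 1.21 ± 0.27 on the log2 scale with the replicate block (adjusted p = 0.0253). It did not pass without the block, where the SE was 0.53 (0.296). With 1 exoNOD array at background, no fold is given, and Aspn was not tested when all 6 arrays had to be well above background. The call with the block was lost without replicate 3 (0.0855), and with normexp background correction the change was 0.39, where the median of all genes was 0.35.

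Dcn, the fibril-coating proteoglycan decorin, had −2.35, −2.40 and −1.90 in exoNOD and −2.15, −2.28 and −1.34 in control cells. It was lower in every pair, with a change of −0.29 ± 0.26 (adjusted p = 0.577, and 0.169 with the block). Lum, the related lumican gene, changed by −0.26 ± 0.20 and did not pass. Both had positive changes with normexp correction (0.12 and 0.65). Bgn and Fmod, the biglycan and fibromodulin genes, changed by 0.06 each. Both changes were −0.08 after scaling by the median, and that of Fmod was −0.08 after quantile normalization too.

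**Figure D3:**
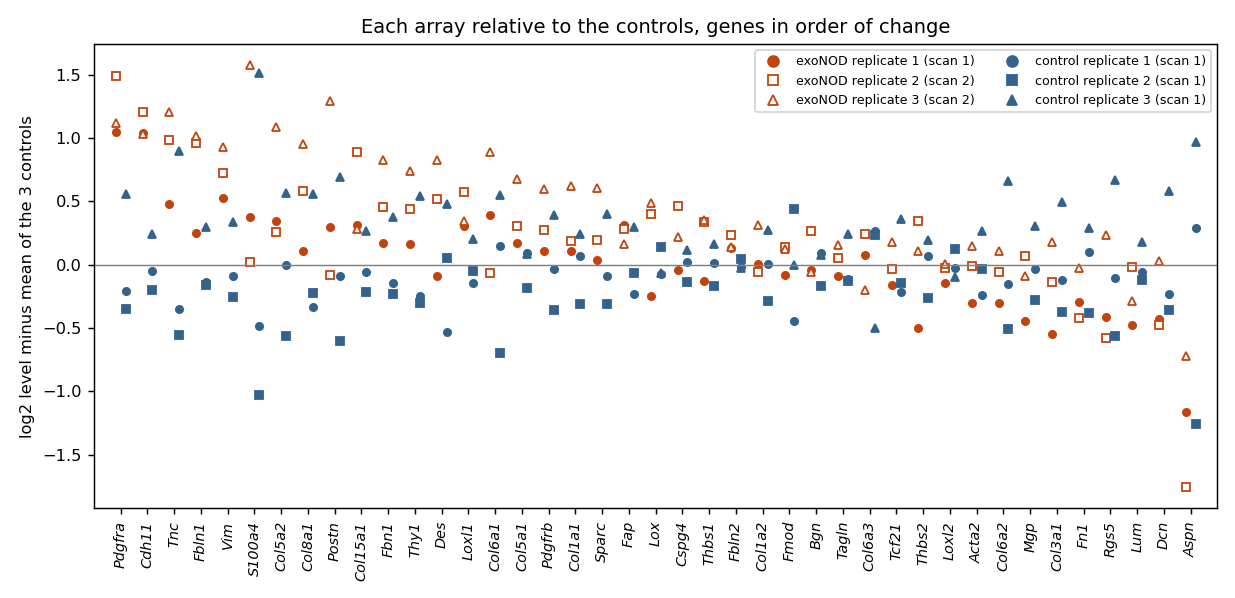
Log2 level minus the mean of the 3 controls (y axis) for each exoNOD array (orange, filled for the scan shared with the controls) and each control array (blue), with the 41 genes in order of change. For Pdgfra, Cdh11 and Vim all exoNOD points lie above the control points, while for genes such as Tnc and S100a4 control replicate 3 lies among the exoNOD points.

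The arrays within each group differed in the level of these genes. Whether this came from the preparation, the scan or the array was not tested. The mean level over the 41 genes was −0.95, −0.74 and −0.53 in exoNOD and −1.06, −1.23 and −0.61 in control cells, so replicate 3 was the highest in both groups, and control replicate 3 lay above exoNOD replicates 1 and 2. Over these genes equal-numbered arrays deviated from their group means with correlations of 0.449, 0.703 and 0.735, a description, since the genes share arrays. Of the 41 genes, 20 were higher in exoNOD cells in all 3 pairs and 4 were lower, against 29% and 22.1% of all tested genes. The median pair difference was 0.08, 0.49 and 0.15, against 0.02, 0.07 and 0.02 for all genes.

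Scan and treatment are partly tied. In exoNOD replicate 1, which shares its scan with the controls, the median difference of the 41 genes from the mean of the controls was 0.04, and 22 were higher, against 53.8% of all genes. In replicates 2 and 3 the median difference was 0.34. Within the first scan the difference was 1.04 for Cdh11, 1.05 for Pdgfra, 0.53 for Vim and −1.16 for Aspn. It was 0.39 for Col6a1, 0.38 for S100a4, 0.30 for Postn, 0.25 for Fbln1, 0.18 for Fbn1, 0.17 for Thy1 and 0.10 for Col8a1. These differences rest on 1 exoNOD array, and 0 of the 41 genes passed in limma on the first scan alone (adjusted p = 0.555 for Cdh11, 2 members at an unadjusted p below 0.05). For the second scan, treatment and scan cannot be told apart, since it holds no control.

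The counts on the lists of related genes stand against 16.6% of all tested genes at an unadjusted p below 0.05 without the block, and against 6.67% that rose and 1.73% that fell with it. Among the genes that fold, secrete and process collagen, Adamts14 passed without the block. Of 18 genes on this list 17 were tested, 1 rose without the block and 6 rose with it, and the median change was 0.33. Adamts14, a protease that trims procollagen, had −2.62, −2.75 and −3.15 in exoNOD cells, against −4.21, −4.19 and −4.13 in control cells. The groups lay far apart, and Adamts14 rose 2.53-fold (log2 change 1.34 ± 0.17, limma adjusted p = 0.047, and 0.00226 with the block). The call without the block was lost with no filter on dim probes and without control replicate 2 or exoNOD replicate 2, where 0 genes passed. The other probe of Adamts14 is not reported here. Pcolce2, which speeds the trimming of procollagen, changed by 1.02 ± 0.18 (0.0843) and rose with the block (0.00596). Mia3, which helps load collagen into transport vesicles, changed by −0.30 (0.247) and did not pass.

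Of the further interstitial and elastic matrix genes, 17 of 18 were tested, 0 passed in limma without the block (4 at an unadjusted p below 0.05), and 3 rose and 2 fell with it (Fbln5 and Ogn), with a median change of 0.11. Fbln5, which assembles elastic fibres, had −2.94, −2.97 and −3.52 in exoNOD and −2.03, −2.30 and −2.44 in control cells, and fell by 0.89 with the block (adjusted p = 0.0047, 0.109 without it). Ogn, a small leucine-rich proteoglycan like Aspn, was well above background on 0 exoNOD arrays and on 3 control arrays, and so met the filter through the control arrays alone. It was at least 1.86-fold lower in exoNOD cells (mean −7.13 against −5.49 in control cells). Its limma adjusted p (0.0338 with the block, 0.132 without it) comes from the measured exoNOD values, which were at background, and not from this bound. The filter favoured a fall of Ogn, which is among the 2 counted. Col16a1, a fibril-associated collagen, rose with the block (0.78, 0.0412, 0.241 without it).

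Of 16 genes of TGF-beta ligands, receptors and targets 3 rose with the block and 0 passed without it (4 at an unadjusted p below 0.05), and the median was 0.09. Among them were the activin chain Inhba (0.64, adjusted p = 0.0269 with the block) and Ccn2, a matricellular target of TGF-beta (0.48, 0.035). Of 8 tested PDGF and FGF genes 0 passed without the block (1 at an unadjusted p below 0.05) and 1 rose with it, the receptor Fgfr1 (0.44, 0.0499), while Fgf7 (0.45, 0.154) and Igf1 (0.62, 0.177) did not pass. Of 14 matrix receptors 0 passed without the block (2 at an unadjusted p below 0.05) and 2 rose with it, the collagen receptor Ddr2 (0.67, 0.0407) and the syndecan Sdc1 (0.67, 0.0166), while the integrin Itga8 did not pass (−0.61, 0.129), and the median was −0.01.

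Smooth muscle and pericyte genes went both ways. Of 13 tested, 3 rose and 2 fell with the block and 0 passed without it (3 at an unadjusted p below 0.05), with a median of 0.36. Mcam, an adhesion molecule of pericytes and endothelium, had 3.88, 4.36 and 4.50 in exoNOD cells, all above the 3.36, 3.36 and 3.47 of control cells (0.85, adjusted p = 0.0843, and 0.00254 with the block). The tropomyosins Tpm1 (0.48, 0.0283) and Tpm2 (0.46, 0.0268) also rose with the block. The 2 that fell with the block, named after their values were seen, were the contractile genes Cnn1 (−0.88, 0.00528) and Actg2 (−0.43, 0.0208).

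**Figure D4:**
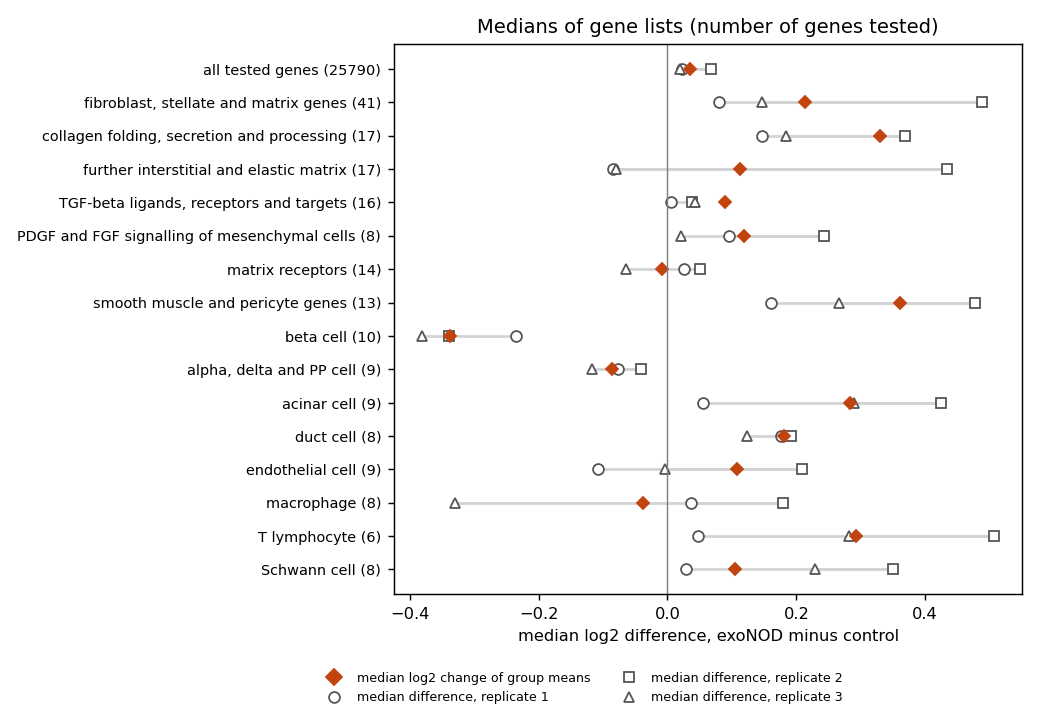
Median log2 difference, exoNOD minus control (x axis), of each gene list over its tested genes, as the difference of group means (diamonds) and in each pair of equal replicate number (open symbols). The matrix list has a median of 0.21, the collagen processing list 0.33 and the beta cell list −0.34.

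Markers of other cells that the preparations could hold were examined as well. Without the block 0 of them passed, against 0.105% of all tested genes. The counts below stand against 55.4% of all tested genes with a higher mean in exoNOD cells. With the block 6.67% of all tested genes rose and 1.73% fell, and without it 16.6% had an unadjusted p below 0.05 in limma. Summed levels are in multiples of the 75th percentile of the array. A sum follows its brightest probes, so the number of markers with a higher mean in exoNOD cells is given beside it. For 10 beta cell markers the sum was 1075 to 1095 in exoNOD and 1107 to 1175 in control cells, 1 marker had a higher mean in exoNOD cells, and 6 fell with the block. Ins1, Ins2 and Iapp, at mean levels of 8.32, 8.63 and 8.26 in exoNOD cells, made up most of this sum. By the naming rule, Ins1 and Ins2 changed by −0.12 and −0.07 and did not pass, and the transcription factor genes Mafa (−0.30, adjusted p = 0.0445) and Nkx6-1 (−0.42, 0.0144) fell with the block. For 9 markers of other endocrine cells the sum was 552 to 602 in exoNOD and 596 to 658 in control cells, 2 were higher, and 0 passed in either fit (1 at an unadjusted p below 0.05 without the block). Among these the hormone genes Gcg, Sst and Ppy changed by −0.09, −0.21 and −0.35.

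For 8 macrophage markers the sum was 18.8 to 20.4 in exoNOD and 24.3 to 27.2 in control cells, and 2 of the 8 were higher in exoNOD cells. Itgam, at a mean level of 3.67 in exoNOD and 4.17 in control cells, made up most of this sum, and the median change of the list was −0.04. The mannose receptor gene Mrc1 averaged −3.77 in exoNOD and −5.97 in control cells. It met the filter through the exoNOD arrays alone, since 1 control array was well above background. Itgam (−0.50, 0.00957) and Adgre1 (−0.87, 0.0171) fell with the block, and the complement gene C1qa (−0.27, 0.0609) did not pass. For 6 T lymphocyte markers, the cells that shed the exosomes and also express Thy1, the sum was 14.1 to 18.4 in exoNOD and 14.1 to 18.9 in control cells, and 5 were higher in exoNOD cells. Lck rose with the block (0.63, 0.00381, chosen after its value was seen), and Cd4 (0.32), Il2ra (0.52) and Cd3e (−0.18) did not pass. Cd3e had 3.25, 3.63 and 3.15 in exoNOD and 3.84, 3.33 and 3.40 in control cells, so the groups overlapped.

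For 9 endothelial markers the sum was 9.20 to 9.92 in exoNOD and 7.69 to 8.74 in control cells, and 5 were higher in exoNOD cells. Plvap, at a mean level of 2.60 in exoNOD and 2.17 in control cells, made up the largest part of this sum, and the median change was 0.11. With the block Plvap rose (0.43, adjusted p = 0.0225), while Vwf (0.73, 0.0633) and Kdr (−0.09) did not pass. The 2 that fell with the block, named after their values were seen, were Cdh5 (−0.80, 0.0369) and Emcn (−0.98, 0.0419). For both, all exoNOD arrays lay below all controls. For 8 duct cell markers the sum was 10.05 to 12.95 in exoNOD and 7.47 to 9.99 in control cells, and 5 were higher in exoNOD cells. The chloride channel gene Cftr rose with the block (0.82, 0.00108), as did 1 other gene, while Muc1 (0.40) and Epcam (0.04) did not pass. For 9 acinar markers the sum was 4.77 to 6.295 in exoNOD and 6.293 to 7.42 in control cells, yet 6 of the 9 were higher in exoNOD cells (median change 0.28). Bhlha15, at a mean level of 2.16 in exoNOD and 2.54 in control cells, made up most of this sum. Cpa1 rose (0.64, 0.0378) and Bhlha15 fell (−0.37, 0.0281) with the block, and Cpb1 (0.85) and Ctrb1 (0.30) did not pass. For 8 Schwann cell markers the sum was 2.33 to 2.52 in exoNOD and 2.10 to 2.41 in control cells. Of these markers 5 were higher in exoNOD cells and 1 rose with the block, while Gfap (0.57) and Sox10 (−0.03) did not pass. Tek, Ptf1a and S100b were counted as higher in the endothelial, acinar and Schwann cell lists. They met the filter through the exoNOD arrays alone, which favoured a rise.

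Of the mesothelial markers only Msln was tested, and it fell by 0.52 with the block (adjusted p = 0.00765). Upk3b, Wt1, Lrrn4 and Upk1b were not well above background on all arrays of either group, and the same held for Cela2a, Tie1, Cd3g and Cd3d of the acinar, endothelial and T lymphocyte lists. The part that these cells had in the changes of the matrix and mesenchymal genes was not tested.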

How the data were processed

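Cy3-labelled RNA of 3 exoNOD and 3 control cultures was measured on Agilent arrays with 1 colour. Per the file headers, the deposited intensity values come from Agilent Feature Extraction 11.0.1.1, had local background subtracted and spatial trends removed, and are not normalized between arrays. The other deposited values, per the file headers, are spot flags of 0 or 1. The authors' value table is on the log2 scale by comparison with the scanner signals (r of at least 0.9998 per array). It holds 31766 of 39429 probes, its column medians lie between 7.921 and 7.923, and its normalization is not given in the sources used here.

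Spots of a probe were averaged as log2 processed signals and each array's 75th percentile (812 to 890 in signal units) was subtracted. A probe was kept where every array of 1 group or both showed it well above background (31065 probes), named through RefSeq accessions (27234 of all probes had a symbol), and reduced to 25790 genes. Groups were compared with limma 3.58.1 (lmFit, eBayes with a trend, two-sided) in R 4.3.3, threshold 0.05. For Ogn, above background in 1 group only, a lower bound is given, with the dim arrays set to the lowest signal well above background or their own value, whichever was higher. The normexp alternative used the median spot signal, the column the files hold. Alternatives are listed in the closing section, and leaving out spots marked as outliers was added after seeing the data. The fit was tested on simulated data.

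The members and lists were chosen with earlier results of these data known. Named were all members, the 3 genes with the lowest unadjusted p of each related list and those that passed, and of each cell type list the 2 with the highest mean level and the 2 with the lowest p. Some genes that this rule names are not reported here. Arrays of equal replicate number were taken as pairs, since every correlation of deviations was above 0.1. Those of unequal number lay between −0.338 and 0.00856. Deviations cancel out within a group, so positive correlations at equal numbers bring lower ones at unequal numbers. The latter are thus no further support for the pairing. Without the block, p-values rest on the spread of the 3 arrays within each group, and with it on that of the 3 pair differences. In both fits limma moved this spread toward a trend over all genes. The p-values thus do not measure the spread of a gene's own arrays alone. A gene with uneven pair differences, such as S100a4, could so pass with the block. In both fits scan and treatment are partly tied.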

Additional observations from a re-analysis of the deposited data

How the results depend on the processing

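Without the block 27 genes and 1 member passed. With the replicate block 2166 genes and 11 members passed, which rests on the pairing, taken from the data and not from the labels. Genes and members past the threshold numbered 166 and 0 with normexp background correction, 31 and 0 with quantile normalization and with the authors' values, 13 and 0 with median scaling, 0 and 0 with no filter on dim probes (4627 genes at an unadjusted p below 0.05), 294 and 1 with array weights, 25 and 1 (of 40 members tested) where all 6 arrays had to be above background, and 27 and 1 without spots marked as outliers. They numbered 2 and 0 with the scan as a block, 3 and 0 in the first scan alone, and 18 and 0 with the median over probes. With the replicate block they were 1190 and 6 after quantile normalization, 1231 and 6 with the authors' values, and 4170 and 11 after median scaling. Leaving out 1 array gave 0 to 1289 genes and 0 to 3 members, and leaving out pairs 1, 2 and 3 in turn with the replicate block 4270 and 17, 345 and 3, and 1805 and 11. The median of all genes was −0.11 with median scaling and 0.35 with normexp, and the member median minus it was 0.18 and 0.04. Cdh11 kept a positive change in every setting (0.59 to 1.24), with an adjusted p of 0.11 with normexp, 0.0526 with median scaling, 0.0511 with the authors' values, 0.104 with no filter, 0.669 with the scan block and 0.555 in the first scan. The causes were not tested.

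The 11 members that passed with the block kept their direction in every setting that tested them except Aspn with normexp (Aspn was not tested where all 6 arrays had to be above background). No other change of sign was in a member that passed in either fit. With normexp the log2 change was 0.39 for Aspn, −0.11 for Col1a2, 0.53 for Col6a2, −0.028 for Col6a3, 0.12 for Dcn, 0.0049 for Loxl2, 0.65 for Lum, 0.28 for Rgs5, −0.18 for Tagln, 0.82 for Tcf21, −0.018 for Thbs1 and 0.51 for Thbs2. For Fmod it was −0.083 with quantile normalization and with the authors' values, with and without the replicate block. With median scaling, with and without the replicate block, it was −0.084 for Bgn, −0.054 for Col1a2, −0.10 for Col6a3, −0.080 for Fmod and −0.10 for Tagln. With array weights it was 0.022 for Acta2, 0.022 for Col6a2, −0.092 for Col6a3 and 0.083 for Tcf21. With the scan block, and in the first scan alone, it was −0.042 for Bgn, −0.042 for Cspg4, −0.088 for Des, −0.081 for Fmod, −0.25 for Lox, −0.091 for Tagln and −0.13 for Thbs1. With the median over probes it was 0.028 for Loxl2. With the replicate block and no pair 1 it was −0.090 for Fmod and 0.26 for Thbs2. With the replicate block and no pair 2 it was −0.13 for Bgn and −0.031 for Tagln. With the replicate block and no pair 3 it was 0.15 for Col6a2, −0.095 for Col6a3, 0.083 for Tcf21 and 0.019 for Thbs2. Leaving out 1 array, the ranges that crossed 0 were −0.17 to 0.079 for Acta2, −0.048 to 0.11 for Bgn, −0.055 to 0.22 for Col1a2, −0.36 to 0.080 for Col3a1, −0.34 to 0.24 for Col6a2, −0.21 to 0.17 for Col6a3, −0.16 to 0.28 for Fmod, −0.099 to 0.010 for Loxl2, −0.53 to 0.085 for Rgs5, −0.025 to 0.16 for Tagln, −0.11 to 0.18 for Tcf21 and −0.19 to 0.23 for Thbs2.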
